A study of Mus musculus with 20 samples.

Results

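Lambda light chain genes were followed through single-cell transcriptomes of spleens and lymph nodes from mice with B cell transgenes. Of the 31053 genes counted in each library, 7 made up the set, the variable genes Iglv1, Iglv2 and Iglv3 and the constant genes Iglc1, Iglc2, Iglc3 and Iglc4, and all 7 were detected. They were chosen by name, and cells were then classed by their lambda UMIs (unique molecular identifiers, each standing for 1 captured RNA molecule) against those of Igkc, the kappa constant gene, so the class shares below are descriptions and carry no test. The 20 libraries came from 13 mice and formed 5 groups, which were Eµ-PRMT5 spleen (5 libraries), Eµ-TCL1 spleen (4), Eµ-PRMT5/TCL1 spleen (4), Eµ-TCL1 lymph node (3) and Eµ-PRMT5/TCL1 lymph node (4). All mice carried the C57BL/6N strain label and a transgene for human PRMT5 (Eµ-hPRMT5), human TCL1 (Eµ-hTCL1) or both (Eµ-hPRMT5/hTCL1), so no library came from a mouse without a transgene. PRMT5 was placed behind an immunoglobulin heavy chain V promoter and the Eµ enhancer, which are active in B cells. The Eµ-PRMT5 lines were raised from separate founders, the labels name a founder for 1 of these mice only (spleen 3), and the study's methods give C57BL/6J as the background of the Eµ-TCL1 parents. Live cells were taken without sorting when mice met removal criteria, ages are not in the labels, and the nodes were sub-mandibular. In 7 mice both tissues were measured, so their spleen and node libraries are not independent.

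A B cell displays an antibody of 2 heavy and 2 light chains, and its light chain is either kappa or lambda. Kappa genes are rearranged first, and lambda genes usually only after kappa rearrangement has failed, so a cell as a rule makes 1 light chain and most mouse B cells make kappa. In the mouse each lambda constant gene has its own joining segment. Iglv1 is usually joined to Iglc1 or Iglc3, and Iglv2 and Iglv3 to Iglc2, while Iglc4 is regarded as non-functional. Unrearranged constant genes can be transcribed as well. Chronic lymphocytic leukaemia, which Eµ-TCL1 mice model, is a growth of CD5+ B cells from few clones, and each clone carries its own V genes.

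The 7 genes lie on the minus strand of chromosome 16 in GRCm38, in the order Iglc1 (chr16:19061618-19062071), Iglc3 (chr16:19065230-19065681), Iglv1 (chr16:19085017-19085500), Iglc4 (chr16:19194999-19195312), Iglc2 (chr16:19198396-19200351), Iglv3 (chr16:19241207-19241690) and Iglv2 (chr16:19260401-19260859). RefSeq lists Iglc4 as a constant region pseudogene and the other constant genes as constant regions, each with 1 exon, while each V gene has 2 exons. Iglc2 and Iglc3 were 96.5% identical over 314 aligned coding bases, with 79 bases in a row shared, so that reads from this stretch could belong to either. Iglc1 was 73.2% identical to Iglc2 and 86.5% identical to Iglc4. Iglv1 and Iglv2 were 96.9% identical, with 104 bases in a row shared, while Iglv1 and Iglv3 were 52.1% identical. The pairs Iglc2 with Iglc3 and Iglv1 with Iglv2 are therefore uncertain where the counting could have split their reads. A coding stretch of 30 bases, read 5′ to 3′ on the minus strand of GRCm38, shows these distances. Capitals mark bases that differ from Iglc2 among the constant genes.
Iglc1 (chr16:19061830-19061859): ctGACCCtgacaGcAAGAGCAtggGAaAGG
Iglc2 (chr16:19198614-19198643): ctacatttgacatcggaccagtggagatct
Iglc3 (chr16:19065443-19065472): Ttacatttgacatcggaccagtggagatct
Iglc4 (chr16:19195077-19195106): ctGcTCttCacaGcAgaAGCgtggGAatct
In the first exon of the V genes, capitals mark bases that differ from Iglv1.
Iglv1 (chr16:19085421-19085450): tttcacttatactctctctcctggctctca
Iglv2 (chr16:19260805-19260834): CttcacttatactctctctcctggctctcT
Iglv3 (chr16:19241640-19241669): CtCcTctCTtCTtctTCTtTGtTCTtcATT
In these windows Iglc3 differed from Iglc2 at 1 base and Iglv2 from Iglv1 at 2 bases, whereas Iglc1 and Iglc4 differed from Iglc2 at 18 and 11 bases and Iglv3 from Iglv1 at 18 bases.

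The libraries held 9348094 to 72440894 UMIs each, and 84231 cells were kept (688 to 7631 per library) after 3542 likely doublets were removed. B cells were cells with at least 3 UMIs of Cd79a and Cd79b together, no UMI of Cd3d, Cd3e or Cd3g and fewer than 20 UMIs of Jchain, and plasma cells were those with at least 20 Jchain UMIs. These gates gave 30891 B cells (194 to 5140 per library), 3441 plasma cells (1 to 688) and, for background, 25357 T cells. Outside the genes of the gate, B cells carried Ms4a1 at 64.5 to 1479 CPM (UMIs per 1000000), Pax5 at 20.3 to 109 and Ebf1 at 3.34 to 539 CPM. Of 6 myeloid markers, S100a8 and S100a9 were the highest in B cells, with medians of 152 and 156 CPM over libraries and maxima of 1219 and 1628 CPM, while T cells had medians of 127 and 142 CPM. The part of this RNA in the results was not tested. Any pair of libraries shared at most 1.31% of the cell barcodes of the smaller one.

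By the rule, a cell with at least 10 light chain UMIs was lambda-class when the 7 lambda genes gave 80% or more of lambda and Igkc UMIs, kappa-class at 20% or less, and both-class in between with at least 5 UMIs of each. Of 30891 B cells 21880 could be classed, and of these 13265 were lambda-class, 6499 both-class and only 508 kappa-class, with 1608 in between but short of 5 UMIs of one chain. The Eµ-PRMT5 spleens had 28.5%, 12.1%, 21.5%, 5.21% and 38.5% of classed B cells in the lambda-class (21.1% ± 13.2, SD, n = 5). For Eµ-TCL1 spleens the lambda-class shares were 11.9%, 68.0%, 31.6% and 86.5% (49.5% ± 33.9, n = 4), whereas the Eµ-PRMT5/TCL1 spleens reached 60.3%, 94.8%, 98.0% and 68.2% (80.3% ± 18.9, n = 4). Among classed cells the lambda-class share was above every Eµ-PRMT5 spleen in all 4 Eµ-PRMT5/TCL1 spleens, while the Eµ-TCL1 spleens covered most of the range of both. Lambda constant gene UMIs per B cell averaged 12.3 ± 7.95 (SD) in Eµ-PRMT5 and 12.2 ± 6.41 in Eµ-PRMT5/TCL1 spleens. Igkc averaged 14.8 ± 10.4 and 2.11 ± 2.08 UMIs per B cell. The higher lambda-class share of Eµ-PRMT5/TCL1 spleens thus went with fewer Igkc UMIs, not with more lambda constant gene UMIs. The classed part differed between libraries, from 41.2% to 86.9% of B cells in Eµ-PRMT5 spleens and from 14.4% (spleen 4) to 81.7% in the Eµ-PRMT5/TCL1 spleens. Over all B cells the separation was lost, since Eµ-PRMT5/TCL1 spleen 4 had 245 lambda-class cells of 2499, a smaller part than the 152 of 1297 in Eµ-PRMT5 spleen 1, 27 of 273 in spleen 2, 170 of 1472 in spleen 3 and 146 of 436 in spleen 5. The lymph node shares were 18.5%, 54.3% and 69.3% in Eµ-TCL1 (47.4% ± 26.1, n = 3) and 78.1%, 69.6%, 97.9% and 67.8% in Eµ-PRMT5/TCL1 (78.4% ± 13.8, n = 4), with overlap between them. Without spleen 3 and lymph node 3, which came from 1 mouse described below, the Eµ-PRMT5/TCL1 means were 74.4% and 71.9%. Both-class cells ran the other way, with a mean of 53.5% ± 9.65 for Eµ-PRMT5, 43.8% ± 30.1 for Eµ-TCL1 and 13.6% ± 12.9 for Eµ-PRMT5/TCL1 spleens. Many cells stood close to the upper limit, with 2079 cells within 5 percentage points below 80% and 3311 within 5 points at or above it, against 132 and 168 cells beside the limit of 20%.

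**Figure D1:**
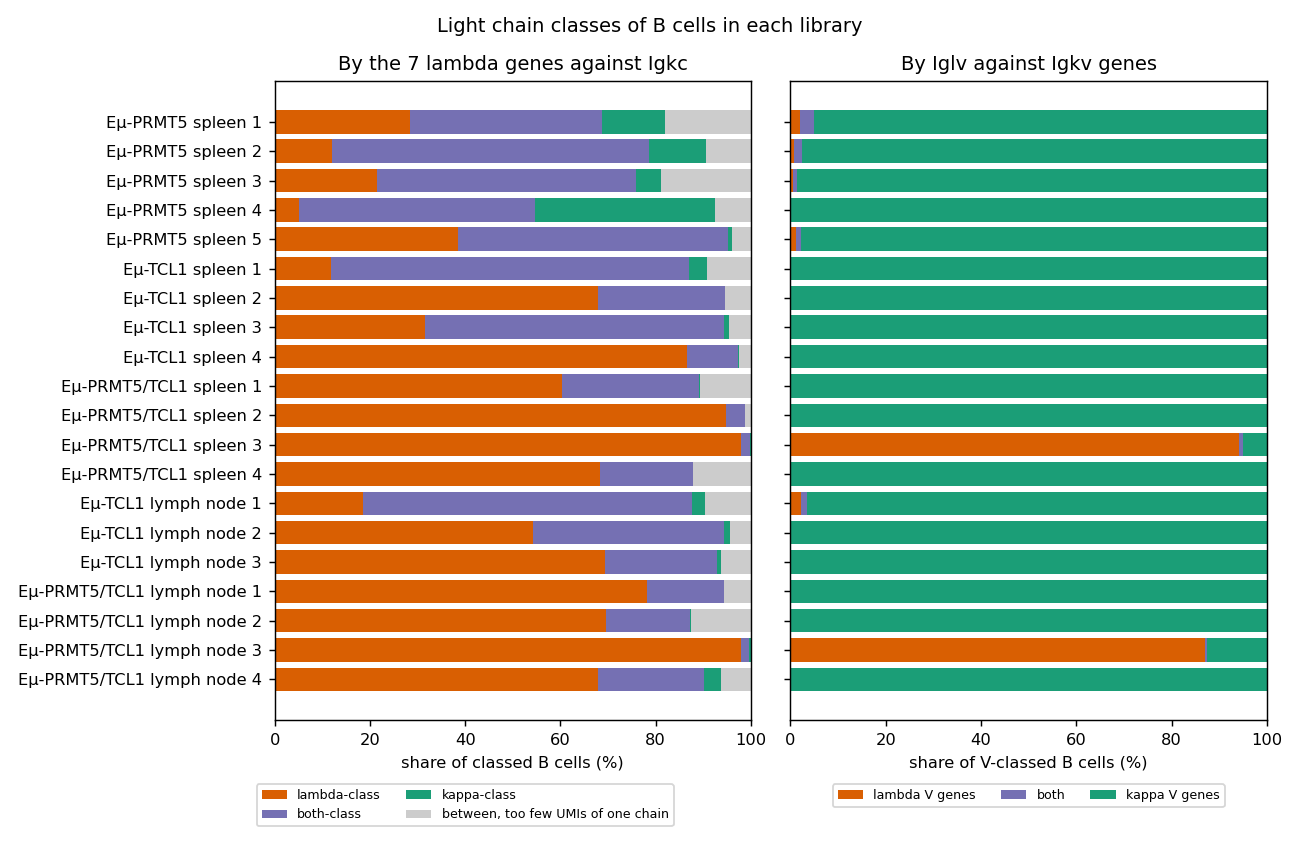
Each bar is 1 library and shows the share of classed B cells in percent, on the left by the 7 lambda genes against Igkc and on the right by Iglv against Igkv genes with the same limits. Lambda-class cells made up 5.21% to 98.0% on the left, whereas on the right lambda V genes led only in Eµ-PRMT5/TCL1 spleen 3 (94.2%) and lymph node 3 (87.0%).

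The V genes went against reading these classes as lambda-expressing cells. A rearranged light chain transcript holds a V gene, and when B cells were classed by Iglv against Igkv UMIs with the same limits, a comparison added after seeing the data, 27062 of 28303 cells had kappa V genes, 1183 had lambda V genes and 58 had both. Of 12755 lambda-class cells with a V class, 11533 had kappa V genes. Outside the spleen and node of 1 Eµ-PRMT5/TCL1 mouse this was 11508 of 11582 lambda-class cells (99.4%). Both-class cells were no different, since 6341 of 6347 with a V class had kappa V genes by these limits. Of the others 6 lay in between and 0 had lambda V genes. Lambda-class and both-class are therefore used below as names of count ranges, not of cell types.

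B cells with kappa V genes held RNA counted for the lambda constant genes, often more of it than of Igkc. Their median was 4, 12, 6, 5 and 23 constant gene UMIs per cell in the Eµ-PRMT5 spleens, where the Igkc medians were 3, 9, 4, 12 and 8 UMIs. The Eµ-TCL1 spleens had constant gene medians of 13, 23, 26 and 33 UMIs against 9, 4, 9 and 3 for Igkc, and the Eµ-PRMT5/TCL1 spleens 15, 15.5, 17 and 3 UMIs against 3, 2, 6 and 0. The nodes gave 12, 30 and 13 UMIs against 7, 6 and 2 in Eµ-TCL1 and 19, 8, 3 and 15 against 2, 1, 1 and 2 in Eµ-PRMT5/TCL1. The lambda constant median thus exceeded the Igkc median in 19 of 20 libraries, Eµ-PRMT5 spleen 4 being the exception. In plasma cells with kappa V genes the order was turned in 20 of 20 libraries, with constant gene medians of 8 to 69 UMIs and Igkc medians of 16 to 348. Some of these medians rested on few cells, with 1 in Eµ-PRMT5/TCL1 spleen 2, 7 in its spleen 3 and 7 in Eµ-TCL1 spleen 2. Eµ-PRMT5/TCL1 lymph nodes 3 and 1 had 9 and 12, and Eµ-PRMT5 spleen 4 had 10.

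**Figure D2:**
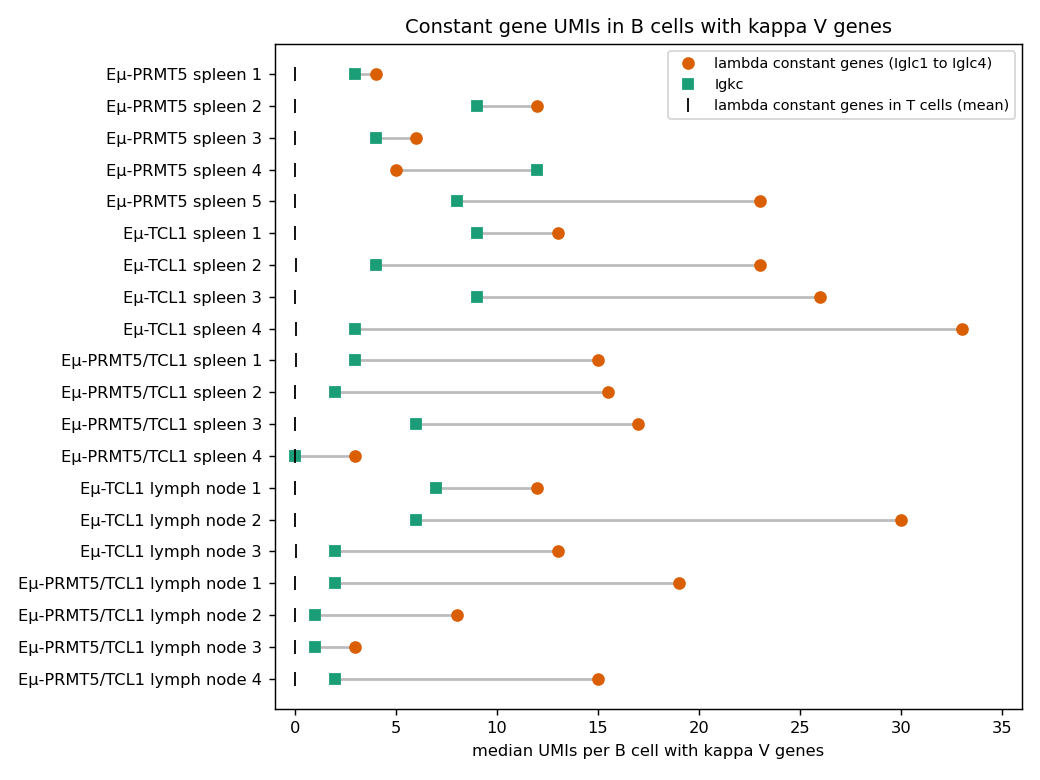
Points are median UMIs per B cell with kappa V genes in each library, circles for Iglc1 to Iglc4 together and squares for Igkc, and ticks are the mean of the 4 lambda constant genes per T cell. Circles lie at 3 to 33 UMIs and to the right of the squares in 19 of 20 libraries, and T cells lie at 0.0772 UMIs or below.

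Most kappa V B cells with these constant gene UMIs had no Iglv UMI, whereas most such plasma cells had at least 1. In the 18 libraries outside the 1 mouse, 21508 kappa V B cells had at least 5 constant gene UMIs, and 17948 of them (83.4%) had no Iglv UMI at all. Of 3181 such kappa V plasma cells in these libraries only 280 (8.80%) had no Iglv UMI. Plasma cells were deeper, with medians over all libraries of 14833 UMIs per cell against 7258 in B cells. Their Igkv UMIs per cell had a median over libraries of 2747, against 84.8 in B cells. The part of these higher counts in the contrast was not tested. T cells, which make no light chain, served as the background for RNA free in the droplets, and were cells with at least 3 Cd3d, Cd3e and Cd3g UMIs together, no Cd79a or Cd79b UMI and fewer than 20 Jchain UMIs. Since a T cell that caught Cd79a or Cd79b RNA was left out by this gate, the background may be understated. Their constant gene UMIs averaged at most 0.0772 per cell, and 0% to 7.56% of T cells had at least 1, against 80.5% to 99.8% of B cells, at median depths of 2861 to 9578 UMIs in T cells and 4266 to 16741 in B cells. When each cell was thinned to 1000 UMIs, with no cell too shallow, 36.8% to 94.3% of B cells and 0% to 2.47% of T cells kept a constant gene UMI. At full depth Igkc was found in 2.13% to 65.2% of the T cells of a library, more often than the lambda constant genes except in Eµ-TCL1 spleens 2 (6.94% against 7.56%) and 4 (2.13% against 5.87%). In these thinned cells B cells therefore lay above the T cell background in every library.

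The levels of single members are given as CPM, taken from the UMIs summed over the B cells of a library, which needs no division by length because 1 UMI marks 1 molecule. Iglc2 was the highest constant gene in every library, with 669, 1028, 959, 353 and 1948 CPM for Eµ-PRMT5, 1260, 2225, 2052 and 2514 CPM for Eµ-TCL1 and 1765, 1166, 803 and 389 CPM for Eµ-PRMT5/TCL1 spleens. Its node levels were 1422, 2445 and 1422 CPM in Eµ-TCL1 and 990, 1297, 708 and 2020 CPM in Eµ-PRMT5/TCL1. Neither tissue separated the groups, since the ranges of the 3 spleen groups overlapped at every pair, as did the node groups. Iglc3 ranged from 54.7 to 1034 CPM, Iglc1 from 20.9 to 829.3 and Iglc4 from 0 to 16.8 CPM. In the 20 libraries Iglc2 gave a median of 67.1% of constant gene UMIs (57.8% to 73.0%), Iglc3 22.9% (17.6% to 30.3%), Iglc1 10.2% (4.02% to 23%) and Iglc4 0.0258% (0% to 0.388%) among B cells with kappa V genes. The order Iglc2, Iglc3, Iglc1, Iglc4 therefore had neighbours with separate ranges except for Iglc3 and Iglc1.

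Among the V genes, Iglv1 lay at 3.76 to 166 CPM in 18 libraries and at 2677 and 4533 CPM in spleen and node of 1 Eµ-PRMT5/TCL1 mouse. Iglv2 reached 39.8 CPM and was at 0 in 5 libraries, and Iglv3 ranged from 0.497 to 41.8 CPM. Igkc, for comparison, ranged from 42.5 CPM in Eµ-PRMT5/TCL1 spleen 3 to 3231 CPM in Eµ-PRMT5 spleen 2. The lowest Igkc value and the second highest Iglv1 value stood in the same library.

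One lambda clone stood out. In Eµ-PRMT5/TCL1 spleen 3, 944 of 1002 B cells with a V class carried lambda V genes (94.2%, 95% Wilson interval 92.6 to 95.5), and in lymph node 3, from the same mouse, 200 of 230 did (87.0%, 82.0 to 90.7). All 944 and all 200 were led by Iglv1. Where a heavy chain V gene could be read, it was Ighv1-9 in 915 of 915 spleen cells and 175 of 176 node cells, so nearly all lambda V cells of both tissues shared 1 pair of V genes. The median cell of the spleen held 32 Iglv, 10 constant gene and 0 Igkc UMIs, and that of the node 21.5, 6 and 0. The 1 clone was the base of the lambda V share of its group, since the other 3 spleens of the group had 0, 0 and 1 lambda V cells.

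Lambda V cells were rare in the other 18 libraries, with 39 of 27071 B cells (0.144%). Eµ-PRMT5 spleens 1, 2, 3 and 5 held 21, 2, 6 and 5 of them and spleen 4 held 0 of 779, Eµ-TCL1 lymph node 1 held 4, and Eµ-PRMT5/TCL1 spleen 4 held 1. In Eµ-PRMT5 spleen 1 they were 2.08% (1.36 to 3.15) of V-classed cells. The other 11 libraries had no lambda V cell, among them all 4 Eµ-TCL1 spleens. These 39 cells were led by Iglv1 in 21, by Iglv3 in 10 and by Iglv2 in 8 cells. They came from different mice, so they could not be 1 clone whatever their V genes. Within Eµ-PRMT5 spleen 1 the 21 cells were led by Iglv1 in 11, Iglv3 in 7 and Iglv2 in 3. Those cells were therefore not 1 clone, unlike the cells of the mouse above.

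Plasma cells, which secrete antibody and carry far more light chain RNA, were both-class in 2690 of 3401 classed cells, kappa-class in 643 and lambda-class in 45. All 2690 both-class plasma cells had kappa V genes, and 11 of 3441 plasma cells had lambda V genes, 5 of them from Eµ-PRMT5 spleen 1, 2 from Eµ-PRMT5/TCL1 spleen 3 and 4 from its node. All 6 from the mouse with the clone carried Ighv1-9 with Iglv1. In these 11 cells V and constant genes paired. Of the 8 led by Iglv1, 7 were led by Iglc1 and 1 by Iglc3 among the constant genes. The 3 led by Iglv2 or Iglv3 were all led by Iglc2. The 6 cells of the mouse with the clone are among the 7 with Iglc1 and share their V genes, so they are not separate cases. In Eµ-PRMT5 spleen 1, 1 cell led by Iglv1 had Iglc1 in the lead and 1 had Iglc3. The leading constant gene gave 60.0% to 97.4% of 21 to 418 constant gene UMIs in a cell, and Igkc never exceeded 42 UMIs. For example, a plasma cell of Eµ-PRMT5 spleen 1 had 12124 Iglv1 UMIs, 199 of Iglc1, 11 of Iglc2 and 2 of Iglc3, while another had 4377 Iglv3 UMIs with 119 of Iglc2, 24 of Iglc1 and 4 of Iglc3. The 2 cells led by Iglv2 also had 652 and 1856 UMIs listed under Iglv1, its near-identical copy. Iglv UMIs outnumbered constant gene UMIs 20.2 to 109 times in these cells. In B cells of the 18 libraries outside the mouse with the clone, Igkv genes likewise had library medians of 13 to 164 UMIs per cell, against 0 to 12 for Igkc. With a kit that reads 3′ ends this order is unusual, and it could not be traced because the files hold no read positions. How fully the constant genes and Igkc were counted is therefore unknown, which limits every class built on them.

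Unlike these plasma cells, lambda V B cells were mostly led by Iglc2 among the constant genes. In the other 18 libraries Iglc2 led in 28 of 39 lambda V B cells and Iglc1 in 4, although Iglv1 was the leading V gene in 21, and in B cells of the clone Iglc2 led as well. In Eµ-PRMT5/TCL1 spleen 3, Iglc2 gave 87.1% of constant gene UMIs in the 944 lambda V B cells, Iglc1 8.68% and Iglc3 4.15%, against 62.8%, 15.8% and 21.4% in the 51 kappa V cells. In lymph node 3 the lambda V cells had 74.5% Iglc2, 17.8% Iglc1 and 7.66% Iglc3, against 70.6%, 5.00% and 24.4% in 29 kappa V cells. Iglc2 led in 870 of 944 and in 150 of 200 lambda V B cells, whereas Iglc1 led in 20 and 16. All 6 plasma cells with the same V genes were led by Iglc1. Iglc3 was thus a smaller share of constant gene UMIs in lambda V than in kappa V B cells in both tissues of this mouse, which is 1 animal and allows no test.

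**Figure D3:**
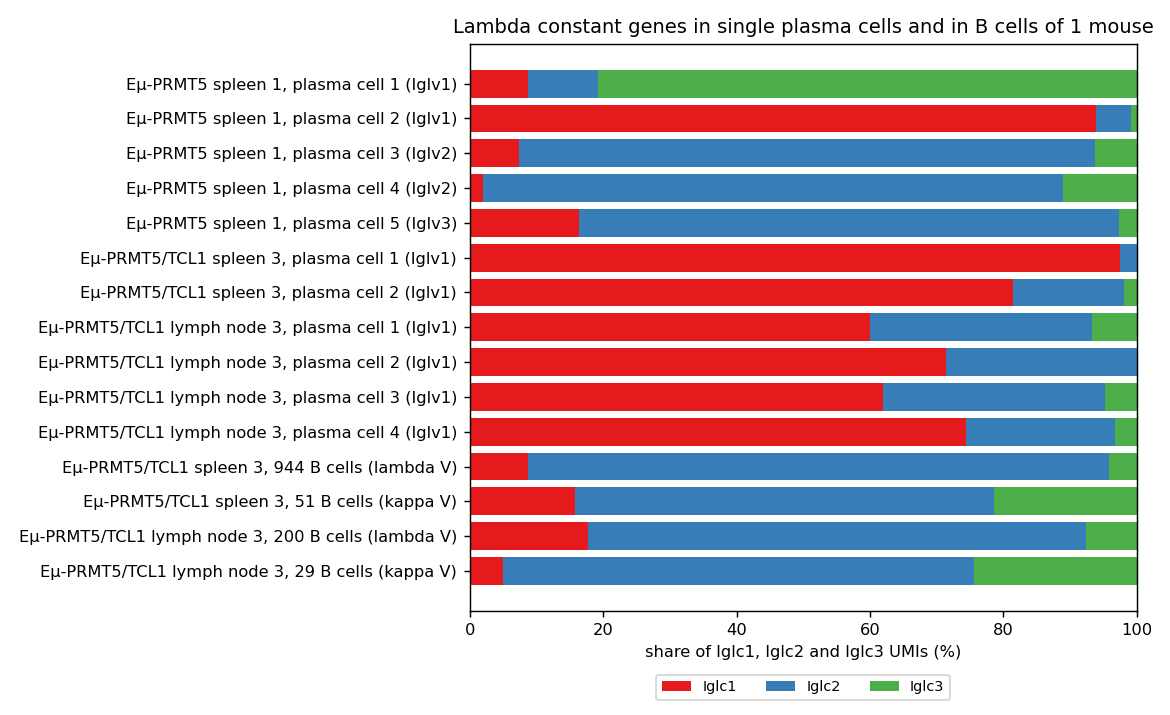
Bars give the share of Iglc1, Iglc2 and Iglc3 UMIs in percent, for each of the 11 plasma cells with lambda V genes (leading Iglv gene in brackets) and for pooled B cells of the mouse with the Iglv1 clone. Iglc1 led in 7 of 8 plasma cells with Iglv1, most of them from the mouse with the clone. In lambda V B cells of that mouse Iglc2 gave 87.1% and 74.5%.

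The Iglc1 share of constant gene UMIs in lambda-class B cells is given as a description, with no test, because Iglc1 is among the genes that set this class. It was 5.88%, 8.86%, 5.36%, 4.89% and 12.2% for Eµ-PRMT5, 10.1%, 14.9%, 12.9% and 18.9% for Eµ-TCL1 and 10.6%, 7.30%, 9.30% and 12.3% for Eµ-PRMT5/TCL1 spleens. The Eµ-PRMT5 and Eµ-TCL1 spleens overlapped only at Eµ-PRMT5 spleen 5 and Eµ-TCL1 spleen 1. The means were 7.43% ± 3.07 (n = 5), 14.2% ± 3.68 (n = 4) and 9.87% ± 2.10 (n = 4). In the nodes the shares were 7.19%, 11.0% and 22.02% for Eµ-TCL1 (13.4% ± 7.71, n = 3) and 5.27%, 6.92%, 17.2% and 6.69% for Eµ-PRMT5/TCL1 (9.03% ± 5.52, n = 4), and the node value was above that of the spleen in 2 of 7 mice.

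Iglc4 counts were low and did not follow the other constant genes evenly. In the annotation used for the coordinates Iglc4 has 3 bases after its coding part, against 137 to 143 for the other constant genes. With a kit that reads 3′ ends, Iglc4 reads beyond these bases could go uncounted, which was not tested. Iglc4 gave 971 of 689343 constant gene UMIs in B and plasma cells, in 882 of 34332 cells and at most 4 per cell. The 25357 T cells had 0 Iglc4 UMIs, which allows a share of up to 0.0118% of T cells with a UMI. They held only 60 UMIs of Iglc1, 310 of Iglc2 and 147 of Iglc3, so the 0 cannot set Iglc4 apart from background. Of the 971 UMIs 808 came from 2 Eµ-TCL1 mice, with 264 in spleen 2 and 90 in its node 2, and 363 in spleen 4 and 91 in its node 3. Per 10000 constant gene UMIs this was 20.5 (exact Poisson 95% interval 18.1 to 23.1), 15.9 (12.8 to 19.5), 38.0 (34.2 to 42.1) and 11.7 (9.43 to 14.4). Eµ-TCL1 spleen 3, with 60 UMIs, lay at 15.4 (11.7 to 19.8), and the other 15 libraries at 0 to 7.51, with 103 UMIs between them. The lowest interval bound of these 5 libraries was above the rate of each of the other 15, although some of the intervals overlapped. Eµ-TCL1 spleen 1, of the same group, was at 4.21 (2.30 to 7.06) and its node at 2.09 (0.254 to 7.56), so the higher rate was not shared by all mice of the genotype. Eµ-PRMT5/TCL1 lymph node 3 had 0 of 2687, with an exact Poisson interval up to 13.7 per 10000. Of the 882 cells 864 had kappa V genes and 5 had lambda V genes. In 18 of 19 libraries with Iglc4 the cells that held it had a higher median of constant gene UMIs than those that did not. Iglc4 is part of this sum, and a rare UMI is caught more often in cells with more UMIs. The higher median therefore says nothing about Iglc4 itself. Iglc1, which shares 31 bases in a row with Iglc4, was also the highest of all libraries in Eµ-TCL1 spleen 4, at 829.3 CPM. The part of shared reads in the Iglc4 counts was not tested.

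**Figure D4:**
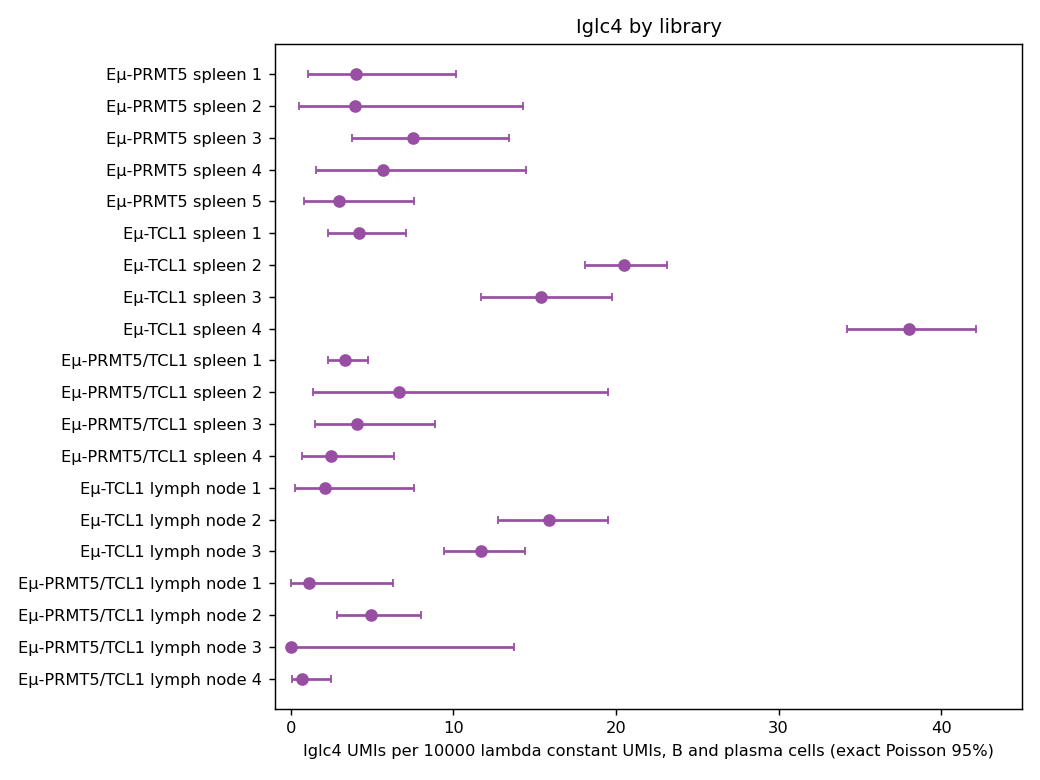
Points are Iglc4 UMIs per 10000 lambda constant gene UMIs in B and plasma cells of each library, and bars are exact Poisson 95% intervals, which cover counting error only. Eµ-TCL1 spleens 2, 3 and 4 and lymph nodes 2 and 3 lie at 11.7 to 38.0, and the other 15 libraries at 0 to 7.51.

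Heavy chain V genes were counted in both-class cells, since a droplet with a pair of unrelated B cells holds 2 of them. A cell was scored as having 2 when its second Ighv gene had at least 3 UMIs and 20% of its Ighv UMIs. In 11 spleens with at least 20 cells in each class, 2 Ighv genes were found in 11.5% ± 21.4 (SD) of both-class cells and 10.1% ± 20.7 of lambda-class and kappa-class cells together, a difference of 1.42 percentage points (two-sided exact sign-flip permutation p = 0.0664, n = 11). The share was higher in both-class cells in 8 spleens, lower in 1 and equal in 2. The count can hardly register pairs of cells where 1 clone prevails, as in Eµ-PRMT5 spleen 4 and Eµ-TCL1 spleens 1, 2 and 4, where 99.2% to 99.8% of kappa V cells shared their leading Ighv gene. The both-class cells were also deeper in 8 of 11 spleens. In 10 of the spleens the both-class share was 22.2% or lower, whereas in Eµ-PRMT5/TCL1 spleen 1 both-class and other cells had 2 Ighv genes in 72.8% and 70.6%. The result depended on the processing, since the difference was 1.61 points with doublets kept (exact permutation p = 0.0391). Without Eµ-TCL1 spleen 2, the 1 spleen with a lower share in both-class cells, the difference was 1.83 points. No p is given for it, since the other spleens were all higher or equal, which fixed the p beforehand.

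Lambda-class and kappa-class B cells of the same library were compared over all genes that passed a count filter. The light chain genes that set the classes and the genes of the B cell gate were not taken out. Jchain, a gene of the gate, was among the genes called below, and others of these genes can be, so the called shares include them. They were left out of the genes named by size. The comparison was possible in the 5 spleens with at least 20 cells of each class, Eµ-PRMT5 spleens 1 to 4 and Eµ-TCL1 spleen 1. In these, the lambda-class held 152, 27, 170, 34 and 88 cells and the kappa-class 71, 27, 41, 246 and 28. Most lambda-class cells there had kappa V genes (99 of 142, 23 of 26, 149 of 160, 32 of 32 and 88 of 88 cells with a V class), so the test compares ranges of constant gene RNA. Xbp1 and Derl3 were lower in lambda-class cells, and Cd180 and Fcmr were higher. Of 5065 genes tested with edgeR's quasi-likelihood test and library as a block, 158 passed an adjusted p of 0.05 (3.12%), 88 higher (1.74%) and 70 lower (1.38%) in lambda-class cells. Without the library block 4 genes passed, and leaving out 1 spleen at a time gave 79 (Eµ-PRMT5 spleen 1), 92 (spleen 2), 92 (spleen 3), 136 (spleen 4) and 96 (Eµ-TCL1 spleen 1).

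Xbp1, the transcription factor of the plasma cell programme, had 330, 974.7, 689, 416 and 267 CPM in kappa-class cells of these 5 spleens and 83.5, 128, 111, 97.8 and 82.0 CPM in lambda-class cells. Its groups did not overlap, and its log2 fold change was -2.47 ± 0.21 (SE, edgeR adjusted p = 4.07e-05). Derl3, which helps to clear misfolded proteins from the endoplasmic reticulum, had 41.8 to 127 CPM in kappa-class and 4.47 to 20.5 in lambda-class cells (-3.32 ± 0.41, edgeR adjusted p = 0.00104). Eaf2, an elongation factor partner, fell by 2.69, and Chac1, a gene of the unfolded protein response, fell by 2.72 on the log2 scale. The other genes named by size were Hist1h2bc (-2.32), Oosp1 (-2.32), Trib1 (-2.18), Epcam (-2.11), Mt2 (-2.05) and Trp53inp1 (-1.95), lower in 5 of 5 spleens. When each spleen was left out in turn, Oosp1 stayed called in 2 of 5 fits, Trib1 in 3 of 5 and Trp53inp1 in 1 of 4, and the other named lower genes in 5 of 5. Jchain, which joins antibody units and set the upper limit of the B cell gate, had 163 ± 116 CPM in kappa-class and 11.0 ± 14.9 CPM in lambda-class cells (SD, n = 5), and its part in these values was not tested.

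In the other direction Cd180, a Toll-like receptor homologue of B cells, had 22, 22.5, 24.6, 20.6 and 63.7 CPM in kappa-class and 67.0, 158, 128, 75.1 and 104 CPM in lambda-class cells (log2 1.64 ± 0.23, edgeR adjusted p = 0.00226). In each spleen the lambda-class value was the higher one. Fcmr, the receptor for IgM, rose by 1.48 ± 0.24 on the log2 scale, and Fcrl5, an Fc receptor-like gene, by 1.45 ± 0.31. Ms4a6c (2.33), 1810046K07Rik (1.85), Fos (1.60), Acp5 (1.53), Snn (1.42), Fam167a (1.41) and Fam49a (1.36) were higher in 5 of 5 spleens. With each spleen left out in turn, Ms4a6c stayed called in 2 of 5 fits, Fcrl5 in 3 of 5, Fam167a in 1 of 4 and Fam49a in 1 of 5, and the other named higher genes in 5 of 5.

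**Figure D5:**
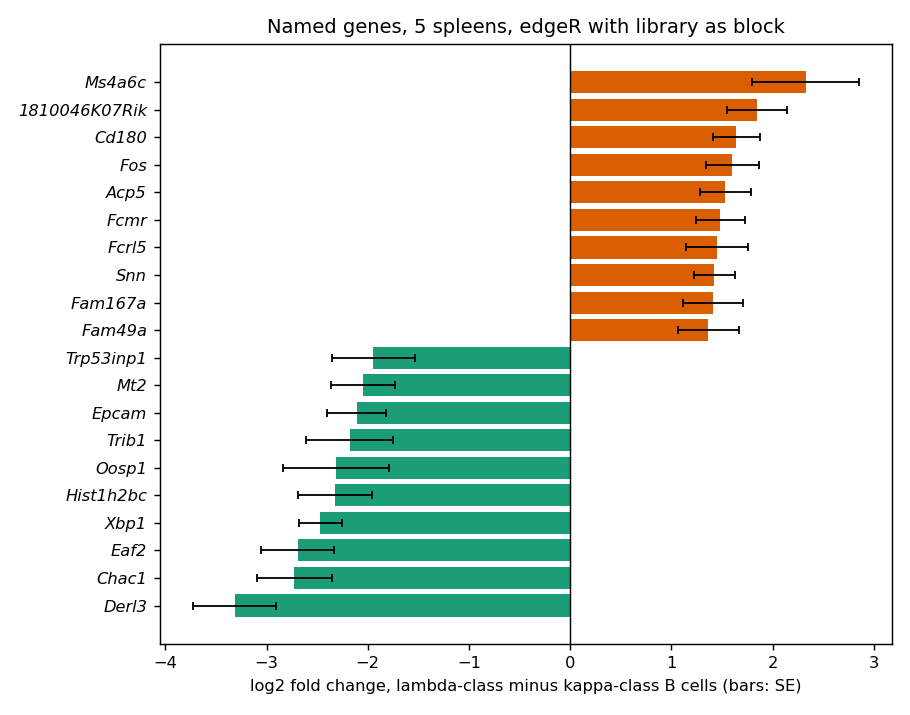
Bars are log2 fold changes between lambda-class and kappa-class B cells of 5 spleens, from edgeR with library as a block. Lines are standard errors derived from the fold change and the F statistic of the test. The 10 named higher genes lie between 1.36 and 2.33 and the 10 named lower genes between -3.32 and -1.95.

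By list and without the genes of the gates, 5 B cell markers were tested and 2 were higher, Ms4a1 (1.18 ± 0.21), which encodes CD20, and Cd37 (0.57 ± 0.13), with a list median of 0.57 against 0.00128 over all genes. Of 8 B cell receptor signalling genes, all tested, 2 were higher, the inhibitory receptor Cd22 (1.19 ± 0.25) and the phosphatase Ptpn6 (0.78 ± 0.15), with a median of 0.39. With each spleen left out in turn, Ms4a1 stayed called in 5 of 5 fits, Ptpn6 in 4, Cd22 in 2 and Cd37 in 0. Of 16 genes of light chain rearrangement and early B cells 7 were tested and 0 called by edgeR, with 4 at an unadjusted p under 0.05, as were 836 of all 5065 genes tested, and a median of 0.41. Of 3 tested plasma cell markers other than Jchain 2 were lower, Xbp1 and Mzb1 (-0.91 ± 0.14), with a median of -0.91. Of 10 B1 and leukaemia genes 9 were tested and 1 was higher, Ccdc28b (0.91 ± 0.19, called in 2 of 5 fits with a spleen left out). Mzb1 was also the 1 called gene among 3 tested of 7 marginal zone genes. Of 8 follicular genes 5 were tested and of 7 cell cycle genes 1, and edgeR called 0 of them, each with 1 at an unadjusted p under 0.05. No T, NK, myeloid or erythroid marker passed the count filter in these cells, so none was tested, which does not show that their RNA was absent.

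Of 8 heavy chain constant genes 3 were tested, and Ighg2b was lower in lambda-class cells (log2 -6.57 ± 0.73, edgeR adjusted p = 0.000782). Its kappa-class CPM were 2510, 17874, 7.03, 81.4 and 0, so that the value rested on 2 spleens, and it was lower in 3 of 5. Ighm, the IgM heavy chain, had 2398, 562, 18566, 1015 and 5676 CPM in kappa-class and 607, 1086, 1018, 462 and 1201 CPM in lambda-class cells and did not pass (adjusted p = 0.0539 by edgeR), nor did Ighd (0.29 ± 0.23). The median UMIs of lambda-class cells were 0.578 to 1.21 times those of kappa-class cells. In Eµ-PRMT5 spleen 4, where this ratio was lowest, kappa-class cells had a median of 389.5 Igkv UMIs and lambda-class cells 49. The part of this depth difference in the calls was not tested.

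The genes whose B cell levels were most like those of the members across libraries were found by Spearman correlation of CPM over 20 libraries, among 11852 genes, as a description with no test, and libraries of the same mouse share their cells' origin. For the 7 genes together they were Mcee (rho 0.82), Gchfr (0.80), Borcs8 (0.80), Pfdn5 (0.80) and Zfyve28 (0.77). For the 4 constant genes together they were 1110006O24Rik (0.89), Pafah1b3 (0.86), 1010001B22Rik (0.85), mt-Co1 (0.84) and mt-Co2 (0.83). Igkc was unlike either, with rho of -0.10 to the 7 genes and 0.31 to the constant genes.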

How the data were processed

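Single-cell libraries were made by the authors with a 10x 3′ v2 kit, and the deposited matrices hold raw UMI counts for 31053 genes and all barcodes, without removal of empty droplets. Per the submitters' notes, Cell Ranger 2.0.1, Seurat 2.2.1 and GRCm38 were used, whereas the deposited matrix headers name Cell Ranger 3.1.0. How reads shared by near-identical genes were counted is not given in the sources used here.

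Cells were barcodes that reached the 99th percentile UMI count of the top 3000 barcodes divided by 10 (1745 to 4399 UMIs), had 200 genes or more and did not exceed 10% mitochondrial UMIs. The Scrublet score (scanpy 1.11.5) removed the top 0.8% per 1000 cells, since its own threshold marked 0 to 9 cells in most libraries and 43 to 294 in 4 of them. Counts were summed per library and class. Genes were tested with edgeR 4.0.16 (R 4.3.3; TMM, filterByExpr, quasi-likelihood, Benjamini-Hochberg), with library as a block because both classes came from the same libraries, with DESeq2 1.42.0 as an alternative, and checked on simulated counts. Standard errors of fold changes were derived from the edgeR fold change and the F statistic of its test. Intervals cover counting error only. The labels do not say whether mice of a group were littermates, and p-values measure the spread between these libraries. Named genes were the 7 members, list members, and up to 10 genes each way by largest change among those called with the same sign in every pair and 20 CPM or more, without light chain and gate genes. Members and lists were chosen with earlier results of these data known. The 4-gene likeness, V gene classes and pairings of V and constant genes were added after seeing the data. The coordinates are from GENCODE vM21 and the sequences from the GRCm38 genome. One marker gene, and shares of cells that need it, are not reported here. Planned permutation tests of the Iglc1 share are not reported, since Iglc1 helps to set the classes.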

Additional observations from a re-analysis of the deposited data

Results flagged for a closer look

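In 24 checks of a group of 4 or 5 libraries, 3 values lay far from the rest of their group. They are descriptions and no test, since the genes that chose the members also give these values and the V gene classes were added after seeing the data, so the chance rate of such checks, about 1 in 20 groups, says nothing here. The share of B cells with lambda V genes was 94.2% in Eµ-PRMT5/TCL1 spleen 3, against 0% to 0.0414% in the other 3 spleens of the group. In Eµ-PRMT5/TCL1 lymph node 3, from the same mouse, this share was 87.0% against 0% in the other 3 nodes of its group. The Iglc1 share of constant gene UMIs in lambda-class B cells was 17.2% in the same node, against 5.27% to 6.92% in the other 3. All 3 values came from 1 mouse, so they are not independent of each other.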

How the results depend on the processing

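Of the group-level results under alternative settings, 209 stayed on the same side of their threshold or within the replicate spread, 14 moved, 2 reversed, 4 became stronger and 5 weaker. Of the named genes' results 269 stayed and 59 were weaker, and none of the 158 called genes changed sign in the fits that tested it. With classes from V genes, the lambda-class share of B cells went to 0.913% for Eµ-PRMT5, 0% for Eµ-TCL1 and 23.6% for Eµ-PRMT5/TCL1 spleens and to 0.758% and 21.7% for the Eµ-TCL1 and Eµ-PRMT5/TCL1 nodes, and the both-class share to 0.365% of B cells (from 34.4%) and 0.115% of plasma cells (from 74.2%). With limits of 0.9 and 0.1 the lambda-class share was 9.09% for Eµ-PRMT5, 23.3% for Eµ-TCL1 and 56.6% for Eµ-PRMT5/TCL1 spleens and 21.1% and 57.3% for Eµ-TCL1 and Eµ-PRMT5/TCL1 nodes, and 91.2% of plasma cells were both-class, while with constant genes only 57.9% were. For cells thinned to 1000 UMIs the rule was also loosened, to 5 light chain UMIs and, for both-class, 2 of each chain. With both changes, 34.8% of B cells in Eµ-PRMT5 spleens and 4.54% of plasma cells (from 1.42%, or 0.786% without Eµ-PRMT5 spleen 1) were lambda-class. As a share of cells led by Iglc1, the difference turned to -0.124 points for Eµ-PRMT5/TCL1 against Eµ-PRMT5 spleens and 1.91 for nodes against spleens. The cause of these changes was not tested. The excess of 2 Ighv genes in both-class cells passed p = 0.05 with doublets kept (1.61 points, exact permutation p = 0.0391). It was 0.943 to 1.83 points over the spleens left out in turn, and highest without Eµ-TCL1 spleen 2.

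Against 158 genes called, separate fits called 4 genes with no replicate block, 477 with no filter on low counts and 258 over all libraries (which adds Eµ-PRMT5/TCL1 lymph node 4), and these held 4, 158 and 147 of the 158. Leaving out 1 spleen in turn gave 79 to 136 calls, and 70 to 112 of the 158 were kept. DESeq2 called 147. Class limits of 0.9 and 0.1 and lymph nodes alone could not be fitted, as 1 library had enough cells of both classes.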
